A study of Caenorhabditis elegans with 2 samples.

Results

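The nuclear pore, the lamina and the nuclear transport machinery of *Caenorhabditis elegans* are described here through the genes whose WormBase symbol starts with npp-, ima-, imb-, xpo- or ran-, together with mel-28, lmn-1, emr-1, lem-2, lem-3, baf-1, unc-84 and nxf-1. Of 48 annotated genes that meet this rule, 30 were listed with reads, among 8730 genes in all. Both libraries came from whole young adults that were grown at 20 °C and held at 35 °C for 5 h before RNA was taken. One was from the N2 Bristol wild type and the other from KU25, a strain with the pmk-1(km25) deletion, which removes a p38-type MAP kinase. The study asks how loss of this kinase alters gene expression under heat stress. Unheated worms were not analysed here, so both sides of every comparison are heat-stressed.

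Nuclear pores are large channels through the nuclear envelope, built from many copies of proteins called nucleoporins. A Y-shaped scaffold and an inner ring hold the pore in the membrane, nucleoporins rich in phenylalanine and glycine repeats fill the channel, and filaments and a basket extend to the cytoplasm and the nucleus. Importins and exportins carry cargo through the channel, and the small GTPase Ran sets the direction by being bound to GTP in the nucleus and to GDP in the cytoplasm. Under the inner membrane lies the lamina, a meshwork of lamin to which LEM-domain proteins, the chromatin-binding protein BAF-1 and SUN proteins are attached. In the worm these parts are taken down and rebuilt at each division of the germline and embryo.

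Unique reads summed to 5.78 M for the wild type and 5.23 M for the mutant. With 1 library per genotype there is no replicate error and no test of genotype. Ratios below divide the mutant CPM (reads scaled to the total of that library) by the wild-type CPM, and the exact 95% binomial interval beside each holds counting error alone. They describe 2 libraries. A gene reached the read level used for counts with at least 50 reads in at least 1 library, which 5197 genes did. Their median log2 ratio was -0.33, a ratio of 0.792 or 1.26-fold lower in the mutant, and genes are also described against that value because another scaling of the libraries moves all of them together.

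Transcripts of the nuclear pore, lamina and transport genes were lower in the mutant library, by similar amounts across pore, carriers and lamina. All 30 listed genes had a log2 ratio below 0, as did 49.7% of all 8730 genes and 64.3% of the genes at the read level. With the scaling least favourable to this direction (median-of-ratios factors over genes at the read level), 29 of the 30 lay below 0, all but npp-27. That scaling puts the median of all genes at the read level at 0. Together the 30 genes took 55375 wild-type and 33106 mutant reads, which is 0.957% and 0.633% of all reads and a pooled ratio of 0.661 (0.652 to 0.67). In whole worms, fewer cells of a type and less RNA per cell cannot be told apart.

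At the level of 50 reads stood 29 of the 30 genes, 27 through both libraries and 2 (npp-9 and ran-2) through their wild-type reads alone, which favours a low ratio for those 2. The 29 genes had a median log2 ratio of -0.63, or 1.54-fold lower, which is -0.29 relative to the median of all genes. Their values ran from -1.21 for npp-1 to -0.32 for npp-27. The range between their quartiles was 0.16 on the log2 scale, against 1.19 for all genes at the level. A narrow range was not particular to them. Among the lists described below it was 0.13 for other nuclear transport genes, 0.15 for other nuclear envelope genes, 0.17 for oogenic genes and 0.11 for muscle markers. It was wider for genes of germline proliferation and meiosis (0.35), sperm genes (0.53) and intestine markers (0.61). Over all 30 genes without a level the median was -0.62.

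The differences were modest, from 1.25-fold for npp-27 to 2.33-fold for npp-1. At least 1.5-fold lower, with an interval below 1, were 16 of the 29 genes (55.2%), against 27.6% of all genes at the level. Most of these calls depend on the scaling, with 9 of 29 called under TMM factors (17.8% of all genes), 2 under median-of-ratios factors over genes at the level (2.87%) and 29 with scaling on somatic markers (74.6%). None of the 29 was at least 1.5-fold higher, against 25% of all genes. At least 2-fold lower was 1 of the 29, npp-1, against 1.75% of all genes (with median-of-ratios factors over genes at the level, 0 of 29 against 0.481%, and with scaling on somatic markers, 29 against 67.8%), and none was at least 2-fold higher, against 17.6%. With library totals, the interval lay below a ratio of 1 for 28 of the 29, all but ran-2, against 53.6% of all genes. It lay below the median ratio of all genes for 22, against 30.2%, and the 7 whose intervals reached that median were npp-20, npp-23, npp-27, ran-2, ran-4, baf-1 and unc-84. Both interval counts also depend on depth, since more reads give a narrower interval. In the library with more reads for each gene, the median was 1091 reads for the 29 and 382 for all genes at the level.

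The log2 ratios of all genes did not form a single peak, which bears on how these counts read. Their distribution had its highest point between -0.7 and -0.5, where 1068 genes (20.6%) lay, with a broad shoulder between 0.5 and 1.5 that held 916 genes (17.6%). Of the 29 genes, 16 (55.2%) lay between -0.7 and -0.5 and none between 0.5 and 1.5. The range from -1.0 to -0.3 held 28 of the 29 and 50.2% of all genes. The pore, lamina and transport genes therefore sat in the main peak and not below it, with their median of -0.63 inside its 2 highest bins.

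**Figure D1:**
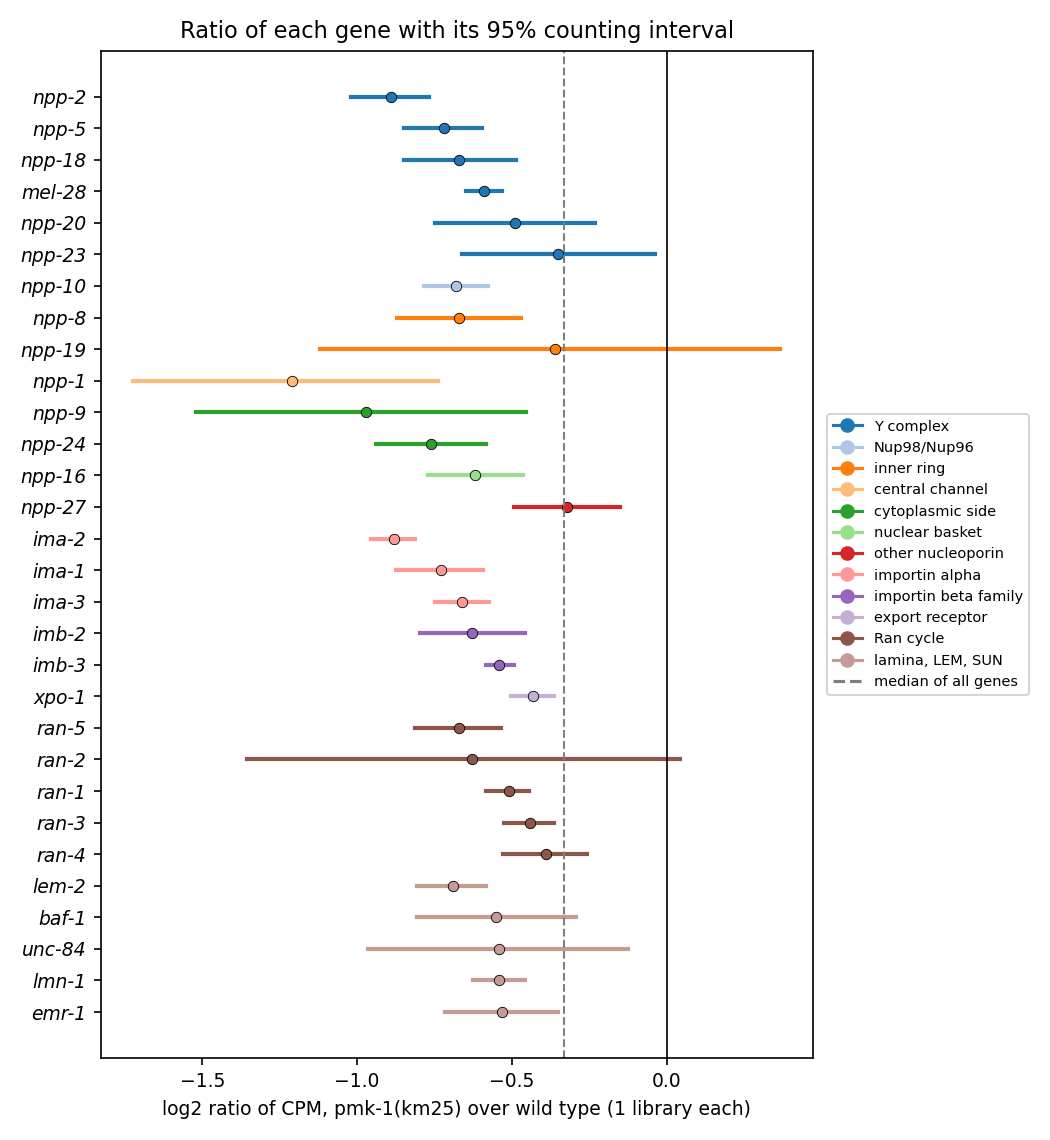
Log2 ratio of CPM, pmk-1(km25) over wild type, for each of the 30 listed genes, grouped and coloured by role, with 1 library per genotype. Points are log2 ratios, bars are 95% counting intervals, the solid line marks 0 and the dashed line the median of all genes at -0.33. All points lie below 0, from npp-1 at -1.21 to npp-27 at -0.32 (which another scaling turned to 0.02), and the bars of npp-19 and ran-2 cross 0.

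The Y complex is the scaffold on which a pore is assembled, and 6 of its genes reached the level. npp-2, the counterpart of vertebrate Nup85, had 1539 wild-type and 749 mutant reads and was 1.86-fold lower (1.7 to 2.03), the smallest ratio of this group. The counterpart of Nup107, npp-5, had 1415 against 776 reads and was 1.65-fold lower (1.51 to 1.8). npp-18, the counterpart of Seh1, had 695 against 396 reads and was 1.59-fold lower (1.4 to 1.8). These 3 scaffold genes lay below the median of all genes with their whole intervals.

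mel-28, the counterpart of vertebrate ELYS, encodes the protein that brings the scaffold to chromatin when nuclei re-form. It had the most reads of any nucleoporin gene, 6231 against 3745, and was 1.5-fold lower (1.44 to 1.57). npp-20, the counterpart of Sec13, which also serves in the coat of secretory vesicles, had 318 against 205 reads and was 1.4-fold lower (1.17 to 1.68). The largest ratio of the group was that of npp-23, the counterpart of Nup43, with 211 against 150 reads and 1.27-fold lower (1.03 to 1.58). Within the Y complex the ratio of npp-23 was 1.46 times that of npp-2 (1.16 to 1.84). This pair was picked as the largest and smallest of the 6, which favours an interval that excludes 1. Reads covered 28.67% of the listed sequence of npp-23 in the wild type.

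npp-10 encodes a precursor that is split into the counterparts of Nup98, a channel protein, and Nup96, a scaffold protein. Its 2080 wild-type and 1175 mutant reads made it 1.6-fold lower (1.49 to 1.72). Of the inner ring, npp-8 (Nup155 in vertebrates) had 570 against 324 reads and was 1.59-fold lower (1.39 to 1.83). npp-19, the counterpart of Nup35, had 40 against 28 reads, under the level, and its 1.29-fold lower value had an interval from 2.17-fold lower to a ratio of 1.29 on the higher side, so no difference was detectable at this depth.

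A channel gene and a filament gene gave the 2 lowest ratios, both from few reads. npp-1, the counterpart of the channel nucleoporin Nup54, had 129 wild-type and 50 mutant reads, a value 2.33-fold lower in the mutant (1.67 to 3.3). Both of its listed isoforms were lower, with 107 against 41 reads for K07F5.13a and 22 against 9 for K07F5.13b. Reads covered 13.97% of the longer of these sequences in the wild type, so the value rests on a small part of the gene, and its interval overlaps those of npp-2 and ima-2.

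On the cytoplasmic face, npp-9, the counterpart of the filament protein Nup358, had 98 against 45 reads and was 1.97-fold lower (1.37 to 2.87), with 3.52% of its main listed sequence covered. npp-24, the counterpart of Nup88, had 762 against 407 reads and was 1.69-fold lower (1.5 to 1.91). On the nuclear face, npp-16, the counterpart of the basket protein Nup50, had 931 against 549 reads and was 1.53-fold lower (1.38 to 1.71). The ratio of npp-24 over that of npp-9 was 1.16 (0.791 to 1.73), an interval that includes 1. npp-27, for which no role is given here, had 655 against 474 reads and was 1.25-fold lower (1.11 to 1.41), the value of the 29 nearest to 0. Taken as 13 genes at the level, the nucleoporins had a median log2 ratio of -0.67, and 10 of the 13 were at least 1.5-fold lower with library totals (27.6% of all genes), all but npp-20, npp-23 and npp-27, a count that depends on the scaling like that of all 29.

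Importin alpha proteins bind the nuclear localisation signal of a cargo and link it to importin beta. The worm has 3, of which ima-1 and ima-2 are known as germline genes and ima-3 is also used in body tissues. ima-2 was the most abundant, with 5122 wild-type and 2510 mutant reads, and the lowest in ratio at 1.85-fold lower (1.76 to 1.94). ima-1 had 1191 against 648 reads and was 1.66-fold lower (1.51 to 1.83), and ima-3 had 2879 against 1646 and was 1.58-fold lower (1.49 to 1.68). The intervals of ima-2 and ima-3 were apart, with the ratio of ima-3 at 1.17 times that of ima-2 (1.08 to 1.26), while that of ima-1 overlapped both.

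Among the carriers of the importin beta family, imb-3 had the most reads of all 30 genes, 9752 against 6071, and was 1.45-fold lower (1.41 to 1.5). imb-2, the counterpart of transportin, had 785 against 460 reads and was 1.54-fold lower (1.37 to 1.74). Their ratios differed by 1.06 times (0.941 to 1.2), which includes 1. The exportin gene xpo-1, the counterpart of CRM1, which carries proteins with a leucine-rich export signal out of the nucleus, had 4113 against 2756 reads and was 1.35-fold lower (1.29 to 1.42). It was among the genes nearest to 0, and its interval still lay below the median of all genes.

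Genes of the Ran cycle had a median log2 ratio of -0.51 over 5 genes, from -0.67 for ran-5 to -0.39 for ran-4. ran-1, the GTPase itself, had 4418 against 2800 reads and was 1.43-fold lower (1.36 to 1.5). ran-3, the counterpart of the exchange factor RCC1 that charges Ran with GTP on chromatin, had 3163 against 2101 reads and was 1.36-fold lower (1.29 to 1.44). ran-4, the counterpart of NTF2, which returns Ran to the nucleus, had 1091 against 751 reads and was 1.31-fold lower (1.2 to 1.44). With library totals and an interval below 1, 1 of the 5 genes was at least 1.5-fold lower, against 27.6% of all genes at the level. This was ran-5, another gene of the ran- class, with 1178 against 668 reads and 1.59-fold lower (1.45 to 1.76). With median-of-ratios factors over genes at the level its log2 ratio was -0.34. The ratio of ran-4 was 1.21 times that of ran-5 (1.06 to 1.39). ran-2, the GTPase-activating protein of the cycle, had 50 against 29 reads and its interval reached 1 (1.56-fold lower, 0.968 to 2.56).

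The 5 listed lamina genes had log2 ratios from -0.69 to -0.53, a median of -0.54. lmn-1, the single lamin gene of the worm, had 3021 against 1880 reads and was 1.45-fold lower (1.37 to 1.54). emr-1, which encodes emerin, had 641 against 401 reads and was 1.45-fold lower (1.27 to 1.64), and baf-1, whose product bridges DNA to LEM-domain proteins, had 333 against 206 and was 1.46-fold lower (1.22 to 1.75). lem-2, which encodes another LEM-domain protein of the inner membrane, had 1837 against 1027 reads and was 1.62-fold lower (1.5 to 1.75), the smallest ratio of the lamina group. unc-84, a SUN-domain gene that anchors nuclei to the cytoskeleton in body cells, had 127 against 79 reads and was 1.45-fold lower (1.09 to 1.95), with 22.3% of its listed sequence covered. The ratios of lem-2 and emr-1 differed by 1.12 times (0.964 to 1.3), an interval that includes 1. Across the 6 role groups with at least 2 genes at the level, the interval for largest over smallest ratio excluded 1 in 3, those of the Y complex, importin alpha and the Ran cycle, although the pair was picked for its distance in each.

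Levels can be compared between genes only per coding length and where reads cover the sequence. Of the 30 genes, 22 had a listed sequence with at least 90% coverage in both libraries, and these are ordered here by the authors' deposited RPKM (reads scaled to listed length and to library total). ran-1 stood highest, at 1179 RPKM for the wild type and 826 for the mutant. ima-2 followed with 555 and 301 RPKM, imb-3 with 514 and 354, and ran-4 with 469 and 357. The lowest were npp-8 with 79.7 and 50.1 RPKM and npp-24 with 66.9 and 39.5. The listed sequences of npp-8 and imb-2 were 30.7% and 47.2% of the longest annotated coding length, so their places in this order rest on a part of the gene. The 5 genes with the highest RPKM all encode soluble carriers or Ran factors, the lamina genes lmn-1, emr-1, baf-1 and lem-2 lay between 211 and 307 RPKM in the wild type, and all nucleoporins other than mel-28 lay at 148 RPKM or below.

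The levels spanned 17.6-fold in the wild type and 20.9-fold in the mutant. For comparison, the ratio between the libraries was at most 2.33-fold for any of the 30 listed genes (npp-1). Of 21 neighbouring pairs in this order, 12 had overlapping 95% Poisson intervals in the wild type, among them ima-3, ran-3 and lmn-1 and the run from emr-1 through xpo-1, baf-1, lem-2 and mel-28 to ran-5. The largest move in rank between libraries was 2 places, as for ima-2, which in the mutant fell below ran-4 and imb-3 in order.

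**Figure D2:**
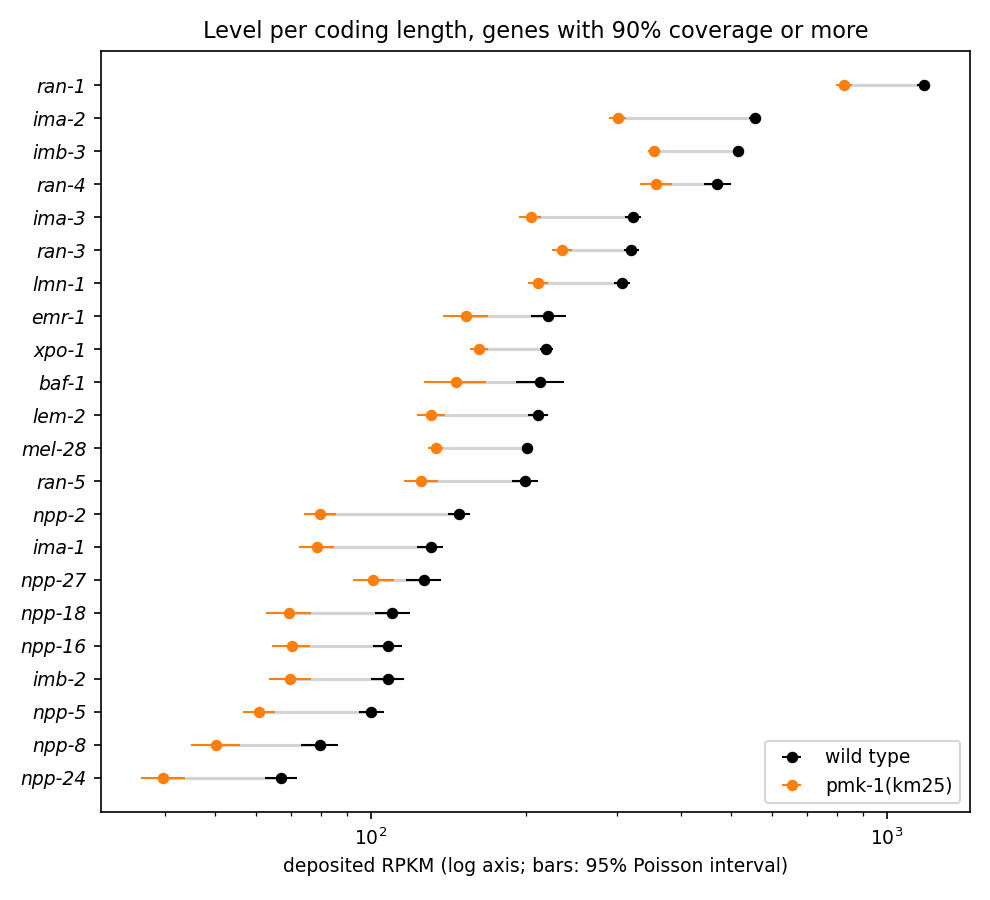
Deposited RPKM on a log axis for the 22 genes with at least 90% coverage of the listed sequence in both libraries, ordered by the wild-type value. For npp-8 and imb-2 the listed sequence is a part of the longest annotated coding length. Black points are the wild type, orange points pmk-1(km25), and bars are 95% Poisson intervals for counting error. Every orange point lies to the left of its black point, from ran-1 (1179 and 826) down to npp-24 (66.9 and 39.5).

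How the reads were assigned sets what these values rest on. Each listed member with a single isoform in the WBcel235 annotation, 19 genes in all, had 96.3% to 99.94% of its sequence covered in the wild type. Of the 11 with more than 1 isoform, 8 had coverage between 3.52% and 45.22%. The 3 others were npp-8, imb-2 and xpo-1, and for npp-8 and imb-2 the listed sequence was 30.7% and 47.2% of the longest annotated coding length. For xpo-1 reads covered 94.02% of the full annotated coding length. For the other 10 genes the reads count a part of the coding sequence, so their RPKM is not a level of the whole transcript. The ratios moved little with coverage of the listed sequence. The median log2 ratio was -0.62 over the 22 genes with at least 90% of it covered, npp-8 and imb-2 among them (from -0.89 to -0.32). It was -0.63 over the 7 others at the level (from -1.21 to -0.35).

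**Figure D3:**
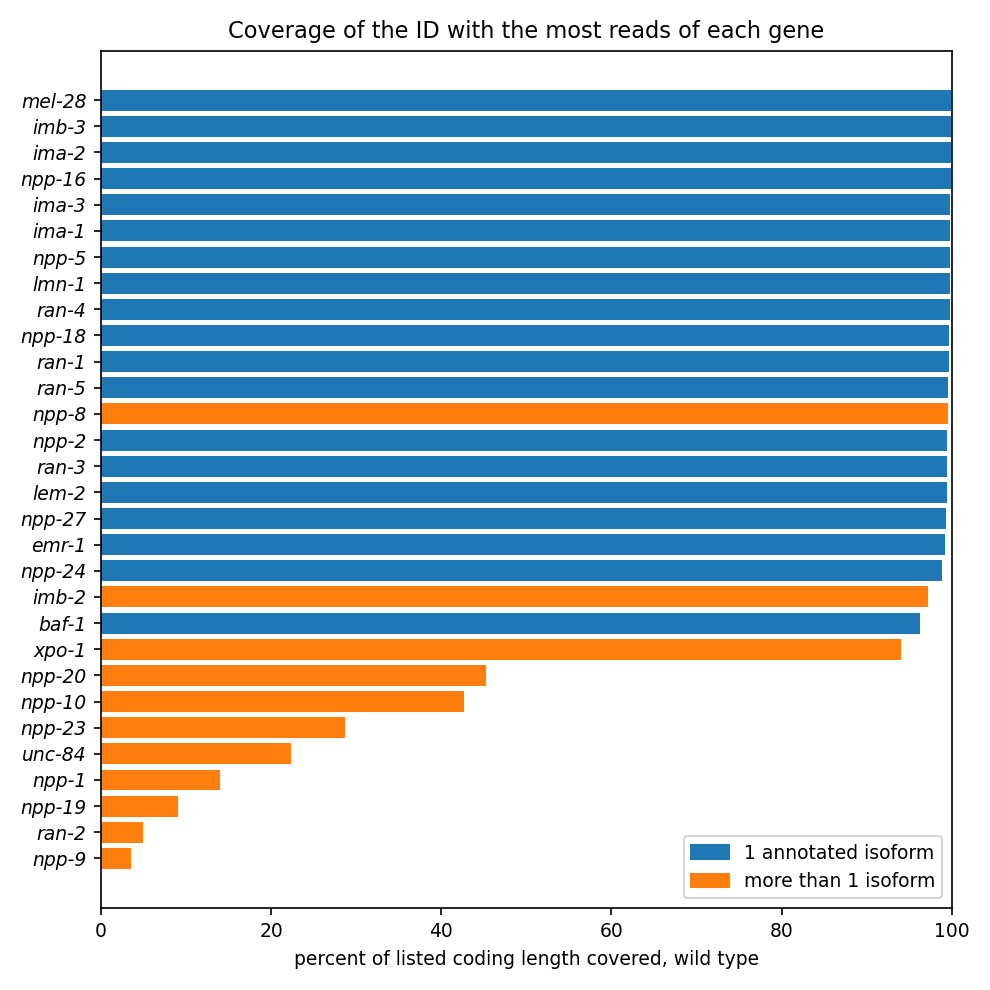
Percent of the listed coding length covered by reads in the wild type, for the listed sequence with the most reads of each of the 30 genes. Blue bars are genes with 1 annotated isoform and orange bars genes with more than 1. The 8 bars under 50% are all orange, from npp-9 at 3.52% to npp-20 at 45.22%.

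For 18 of the 48 genes there was no ID in either library, and they have no value here. These are the nucleoporin genes npp-3, npp-4, npp-6, npp-7, npp-11, npp-12, npp-13, npp-14, npp-15, npp-21, npp-22, npp-25 and npp-26, the carriers imb-1, xpo-2 and xpo-3, the LEM-domain gene lem-3 and the mRNA export gene nxf-1. Among them are the counterparts of importin beta (imb-1) and of several inner ring, channel and basket nucleoporins, so those parts of the pore rest on few genes or on none. The missing genes were not spread evenly by chromosome. Of the 18, 10 lie on chromosome I, where 16 of the 48 genes lie and 6 were listed. Why these genes have no ID was not tested. Of the 48 genes 62.5% were listed, against 43.2% of 19985 annotated protein-coding genes. The share listed was 61.3% of the 31 genes with 1 annotated isoform, against 39.6% of all such protein-coding genes. It was 64.7% of the 17 with more than 1 isoform, against 55.1%.

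The members' neighbours in function, chosen by name and outside the rule, mostly had ratios below 1 too, with 2 above. Of 12 further genes of nuclear transport and SUMO modification with reads (of 15 looked for), 11 reached the level, with a median log2 ratio of -0.48. The SUMO protease gene ulp-1 was the 1 of them at least 1.5-fold lower with library totals, against 27.6% of all genes at the level. It had 2087 against 1200 reads and was 1.57-fold lower (1.46 to 1.69). The mRNA export adaptor gene aly-2 had 2518 against 1531 reads and was 1.49-fold lower (1.4 to 1.59), while its paralog aly-1 had 124 against 136 and a ratio of 1.21 (0.944 to 1.56), an interval that includes 1. Reads of such paralogs are uncertain where copies share sequence.

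Of 8 further nuclear envelope genes with reads (of 11 looked for), 6 reached the level, with a median log2 ratio of -0.64. With library totals 5 of the 6 were at least 1.5-fold lower, against 27.6% of all genes at the level. vrk-1, the kinase that releases BAF-1 from chromatin, had 2399 against 1194 reads and was 1.82-fold lower (1.69 to 1.95), next to 1.46-fold for baf-1 itself. anc-1, a KASH-domain gene whose giant product binds nuclei to actin in the body syncytia, had 340 against 864 reads and a ratio of 2.81 (2.48 to 3.2). Its inner-membrane partner unc-84 had a ratio below 1, with 127 against 79 reads. SUN and KASH genes of the same bridge in body cells thus had ratios on opposite sides of 1.

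Markers of tissues differed widely between the libraries, and those of germline proliferation and meiosis had the median of the pore, lamina and transport genes. Of 24 genes of germline proliferation and meiosis, 21 had reads, all 21 had log2 ratios below 0 (18 with median-of-ratios factors over genes at the level), and their median was -0.63. Of 30 oogenic genes, 26 had reads and 25 reached the level, all 25 with log2 ratios below 0 and a lower median of -0.82, and the list took 2.71% of wild-type and 1.51% of mutant reads. Oogenic cey-2, which encodes a cold-shock domain RNA-binding protein, was 2.14-fold lower (2.08 to 2.19), and the cell-cycle kinase gene cdk-1 was 1.87-fold lower (1.7 to 2.07).

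Most body markers and the sperm genes at the level had ratios on the other side. Of 57 markers of muscle, pharynx, neurons, intestine and hypodermis, 48 had reads and 30 reached the level, with a median log2 ratio of 1.15 (28 of the 30 above 0; the median is 0 by construction when the libraries are scaled on these markers), and the list took 0.914% of wild-type and 1.92% of mutant reads. Of the 2 hypodermis markers at the level, col-19 had a log2 ratio of 1.10 and lin-26 of -0.89. The neuron marker snb-1 was at -0.05. The largest ratio of the 8 muscle markers at the level was that of lev-11 (tropomyosin), 2.68 (2.45 to 2.93), and their median was a ratio of 2.33. Of 55 sperm genes, 44 had reads, with 36 at the level, a median log2 ratio of 3.39, and 0.0168% and 0.15% of reads. Of those 36, 33 were under 50 reads in the wild type, a selection that favours a high ratio, and over all 44 the median was 3.44. Many of the sperm genes are of the msp- class, and their uniquely mapped reads are uncertain where copies share sequence. The muscle myosin gene unc-54 had no ID in either library. The part that these shifts in tissue markers had in the lower values of the pore, lamina and transport genes was not tested, and with 1 library per genotype genotype and library cannot be told apart.

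**Figure D4:**
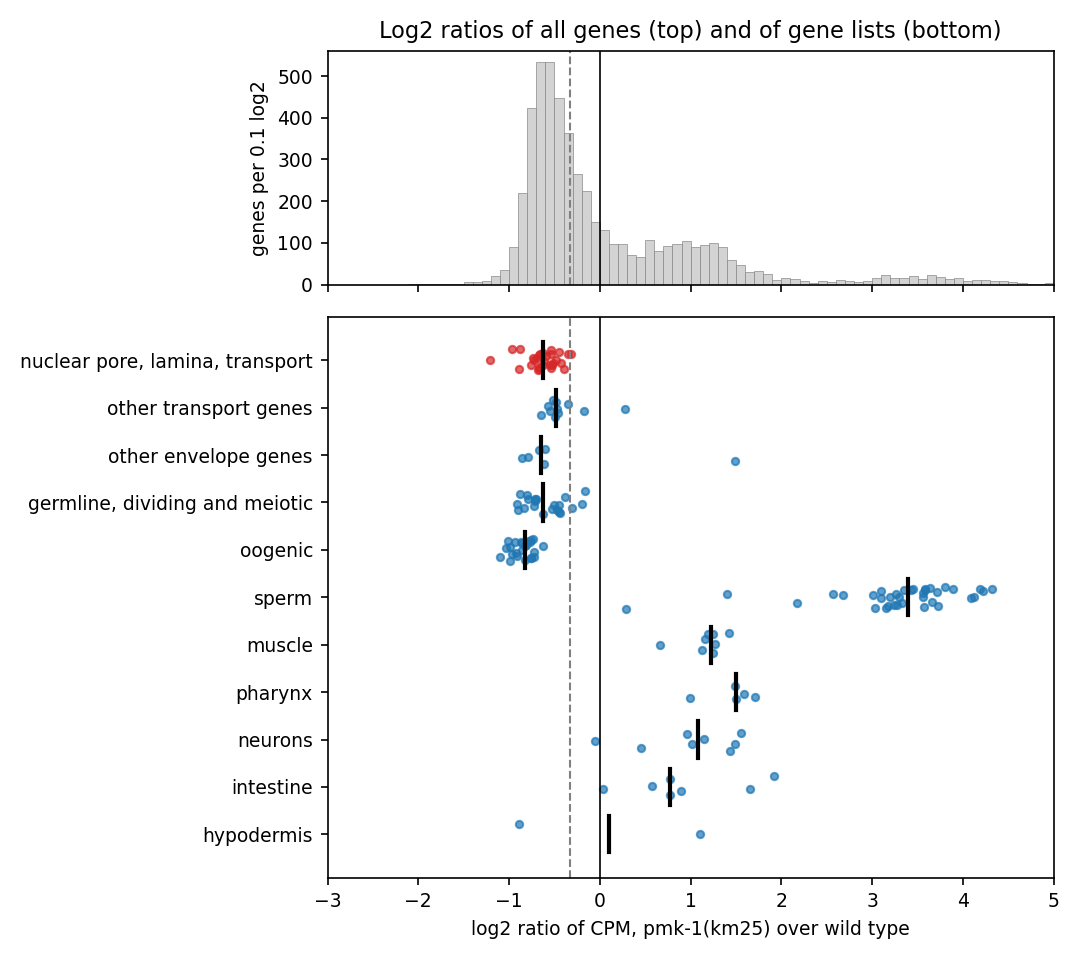
Log2 ratio of CPM, pmk-1(km25) over wild type. The upper panel counts genes at the level of 50 reads per bin of 0.1, with 14 genes outside the drawn range of -3 to 5. In the lower panel each point is a gene at the level, red for the pore, lamina and transport genes and blue for the other lists, and black bars are medians. The dashed line is the median of all genes at -0.33. The red points (median -0.63) sit under the main peak, as does the germline list (-0.63), to the right of the oogenic list (-0.82) and away from muscle (1.22) and sperm (3.39).

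By chromosome, 1 of the 30 genes, unc-84, lies on X, where 8.72% of all genes at the level lie. Genes on X had a median log2 ratio of 0.66 and genes on the 5 autosomes -0.38. unc-84, at -0.54, lay on the side of the autosomal genes.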

How the data were processed

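The deposited counts are uniquely mapped reads per coding sequence ID, not normalized, per the file headers. Beside them the authors give RPKM and the percent of each listed length covered by reads, per the file headers. No aligner, build or annotation is named (not given in the sources used here), and coordinates are therefore left out. Listed lengths were multiples of 3 for all 9430 IDs, and 9383 IDs matched sequence names of Ensembl release 115 (WBcel235), used for names, isoform numbers and chromosomes only. The isoform letter was dropped and reads summed per gene, which gave 8730 genes. Of the rule's genes, 6 had more than 1 listed ID. Where 1 library lacks an ID, 0 reads were entered, an assumption that was not tested.

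CPM ratios used the library totals, with Clopper-Pearson intervals (scipy 1.17.1) at 95%, and log2 ratios a prior of 0.5 reads. No test across genes was possible with 1 library per genotype. Called means at least 50 reads in 1 library, past the fold, with an interval that excludes 1. TMM factors came from edgeR 4.0.16. The procedure was run on simulated counts that held counting error alone, which is what the intervals assume. That run therefore cannot show how they do with differences between libraries. The changes planted in it were larger than any found for the listed genes of the rule. Intervals treat each read as an independent molecule, which reads without molecular identifiers need not be, and cover counting error only. Strand is not stated in the labels' protocols, so overlapping antisense genes can share reads. Every listed gene of the rule has its reads given; fuller values went to genes past 2-fold, those under the level, and the most abundant, highest and lowest of each role. Members, lists and rules were chosen with earlier results of these data known.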

Additional observations from a re-analysis of the deposited data

How the results depend on the processing

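The distance of the pore, lamina and transport genes from the median of all genes (-0.29 on the log2 scale) cannot move with the scaling, which shifts all genes alike. With the deposited RPKM, which rests on the same reads, it was also -0.29. It was -0.28 with the ID of most reads only or with a prior of 2 reads, -0.26 at a mean of 50 reads over both libraries and -0.18 at a level of 200 reads. It was -0.63 with no level filter, where genes of few reads move the median of all genes to 0.01. The number of genes at least 1.5-fold lower, 16 with library totals, was 9 with TMM factors (17.8% of all genes), 29 with scaling on 30 somatic markers (74.6%) and 2 with median-of-ratios factors over genes at the level (2.87%), a setting chosen after the data were seen. At least 2-fold lower were 29 genes with scaling on somatic markers (67.8% of all genes, which all shift together), 0 with median-of-ratios factors over genes at the level (0.481%) and 0 at a level of 200 reads (0.924%), which npp-1 does not reach. With no setting was a gene at least 1.5-fold higher. The log2 ratio of npp-27 turned to 0.02 with median-of-ratios factors over genes at the level and was the only one of the 29 to change sign, so direction for each gene holds relative to library totals. No paired analysis was possible because each genotype has 1 library, and for the same reason no library could be left out. Depth limits npp-19, ran-2, npp-9, unc-84 and npp-1, with 40 to 129 reads in the wild type.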
